A study of Mus musculus with 8 samples.

Results

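The genes described here are the enzymes and partners that write, copy and oxidise 5-methylcytosine in DNA: the oxidases Tet1, Tet2 and Tet3, the DNA methyltransferases Dnmt1, Dnmt3a and Dnmt3b, their cofactor Dnmt3l, and Uhrf1, Uhrf2 and Hells. They were taken by name: 10 genes, set beside 21444 genes with a transcript listed in the files. Of the 10, 9 are among these and Dnmt3l is not. RNA was sequenced from mouse primordial germ cells, from which sperm and eggs descend, at embryonic day 11.5. The 4 Prmt5 KO libraries came from embryos with a Cre recombinase driven by Blimp1 and both copies of Prmt5 floxed (Blimp1Cre;Prmt5flox/flox), and the 4 Control libraries from embryos with the same Cre and 1 floxed copy (Blimp1Cre;Prmt5flox/+), so the Control also carries Cre and may have lost 1 copy of Prmt5. Both groups had a mixed C57BL/6 and 129 background and a dPE_Oct4 GFP reporter, by which the cells were sorted. The input was 50 pg of RNA per library. Prmt5 encodes an arginine methyltransferase that acts on histones and splicing proteins.

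Gene counts totalled 4318972 to 6549504 in the Prmt5 KO libraries and 1811428 to 5844441 in the Control libraries, with Control 2 and Control 3 the shallowest. The targeted gene fell to 35.5 ± 6.49 CPM (counts scaled to library size) in Prmt5 KO, against 138 ± 40.6 CPM in Control (SD, n = 4 each; log2 fold change -1.95, edgeR adjusted p = 0.0389), a call that was lost in 12 of 20 alternative fits. The labelled cell type was checked against 13 markers of primordial germ cells, all of which were measured; their summed level was 3644 to 4442 CPM in Prmt5 KO and 3616 to 3946 CPM in Control. Prmt5 KO 1 and Prmt5 KO 4 lay apart from the other 6 libraries in multidimensional scaling, at -2.26 on dimension 2 and -2.69 on dimension 1. Of 14 markers of somatic gonad and mesonephros, 13 had a count; their summed level was 766 CPM in Prmt5 KO 1 and 175 to 215 CPM in the other Prmt5 KO libraries, against 139 to 217 CPM in Control. Outside Prmt5 KO 1 most of this sum was Mfge8, which was at 114 to 180 CPM in every library. Among the defining somatic markers, Foxl2 was not listed and Nr5a1 was at 14.9 CPM in Prmt5 KO 1 and at most 0.549 CPM in any other library. Of the 7 somatic markers that could be tested none passed in edgeR, and all 7 had a log2 fold change above 0 (median 2.30). That median rests largely on Prmt5 KO 1. Acta2, for example, was at 208 CPM there and 2.71 to 5.95 CPM in the other Prmt5 KO libraries, against 3.72 to 7.13 CPM in Control. Nothing in the labels ties a library to its own embryo, and p-values here therefore measure only library-to-library spread, part of which may be technical.

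DNA methylation is copied to new strands after replication by DNMT1, which UHRF1 brings to hemimethylated CpG sites, while DNMT3A and DNMT3B set new methylation, DNMT3A with the help of DNMT3L in the germ line. TET enzymes oxidise 5-methylcytosine, which leads to its loss by dilution or by repair. Primordial germ cells at this age pass through a genome-wide loss of DNA methylation that also erases imprints, and they are known to keep UHRF1 and the de novo enzymes low while TET1 is made.

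The 250 bases before a RefSeq transcription start (GRCm38.p6) are shown for Uhrf1 and Uhrf2, because these paralogues have transcripts of similar length and differed in level in every library. Capitals mark a match to an E2F-type motif, searched on both strands as TTTCCCGC, TTTGGCGC, TTTCGCGC or TTTGCCGC.
Uhrf1, plus strand, chr17:56304063-56304312: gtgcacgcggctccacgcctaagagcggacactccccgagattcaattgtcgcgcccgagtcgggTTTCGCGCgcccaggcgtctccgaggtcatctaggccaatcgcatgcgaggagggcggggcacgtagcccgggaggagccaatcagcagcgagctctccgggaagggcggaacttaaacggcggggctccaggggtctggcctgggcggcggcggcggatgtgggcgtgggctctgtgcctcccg
Uhrf2, plus strand, chr19:30030263-30030512: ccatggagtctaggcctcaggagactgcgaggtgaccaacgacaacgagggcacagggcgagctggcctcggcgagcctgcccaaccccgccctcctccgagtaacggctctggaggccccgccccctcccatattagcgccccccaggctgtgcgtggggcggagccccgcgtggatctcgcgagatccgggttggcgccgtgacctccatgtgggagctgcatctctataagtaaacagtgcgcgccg
The Uhrf1 window, before the downstream of its 2 RefSeq starts, holds TTTCGCGC and 30 CG dinucleotides; the window before the other start, not shown, holds no match and 10. The Uhrf2 window holds no match and 23 CG dinucleotides, against a median of 6 over 32851 windows of this length. RefSeq windows were matched for all 10 genes, 17 windows in all. A match was found in 3 of these 17 windows and in 1.86% of all windows: 1 of 3 windows of Dnmt1 (GCGCGAAA, the motif read on the other strand), 1 of 2 of Uhrf1 and the window of Hells (TTTCCCGC). A match describes letters in a window only.

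Among the maintenance genes, Dnmt1, Hells and Uhrf2 were abundant and Uhrf1 was lower. Dnmt1, the maintenance methyltransferase (ENSMUSG00000004099; GRCm38, minus strand of chromosome 9, 20907209 to 20959888), was at 296, 337, 295 and 343 CPM in Prmt5 KO 1 to 4, against 318, 212, 258 and 251 CPM in Control 1 to 4. All 4 Prmt5 KO libraries were above the Control mean, but Control 1 lay above the lower Prmt5 KO libraries, so the groups overlapped. The log2 fold change was 0.29 with a standard error of 0.154 and did not pass (edgeR adjusted p = 0.672). On leaving out single libraries it lay between 0.21, without Control 2, and 0.40, without Control 1, and did not pass in either case (edgeR adjusted p = 0.872 and 0.679). It was 0.16 without Control 2 and 3. In these bulk samples, fewer cells of a type and less RNA per cell cannot be told apart.

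Uhrf1 (ENSMUSG00000001228, plus strand of chromosome 17, 56303321 to 56323486), which recruits DNMT1 to newly replicated DNA, was at 33.4, 16.5, 21.9 and 20.2 CPM in Prmt5 KO 1 to 4, against 21.5, 17.9, 18.1 and 25.7 CPM in Control 1 to 4. Prmt5 KO 1 was the highest of the 8 libraries and Prmt5 KO 2 the lowest. Its log2 fold change was 0.14 (standard error 0.396, edgeR adjusted p = 0.968), and on leaving out single libraries it lay between -0.095, without Prmt5 KO 1, and 0.28, without Prmt5 KO 2.

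Uhrf2 (ENSMUSG00000024817, plus strand of chromosome 19, 30030513 to 30093722), a paralogue that does not replace UHRF1 in maintenance in mouse embryonic stem cells, was at 178, 104, 105 and 138 CPM in Prmt5 KO 1 to 4, against 72.7, 100, 106 and 164 CPM in Control 1 to 4. Its highest value was again in Prmt5 KO 1, and Control 4 came next. The log2 fold change of Uhrf2 was 0.24 (standard error 0.268, edgeR adjusted p = 0.869). On leaving out single libraries it lay between 0.059, without Prmt5 KO 1, and 0.50, without Control 4. Prmt5 KO 1 is the library with the high somatic markers, and their part in the levels of Uhrf1 and Uhrf2 was not tested.

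Per kb of transcript, Uhrf2 was 5.39, 6.40, 4.84 and 6.93 times Uhrf1 in Prmt5 KO 1 to 4, and 3.43, 5.68, 5.93 and 6.48 times Uhrf1 in Control 1 to 4. Uhrf2 was therefore the higher of the pair in all 8 libraries. The mean ratio was 5.89 ± 0.945 in Prmt5 KO and 5.38 ± 1.34 in Control (SD, n = 4 each), and the ranges overlapped.

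Hells (ENSMUSG00000025001, plus strand of chromosome 19, 38930915 to 38971051), a chromatin remodeller needed for normal DNA methylation, was at 192, 213, 203 and 173 CPM in Prmt5 KO 1 to 4, against 145, 209, 252 and 147 CPM in Control 1 to 4. The Prmt5 KO values lay inside the Control range. The log2 fold change was 0.057 (standard error 0.199, edgeR adjusted p = 0.972), and leaving out Control 1 or Control 4 turned it to -0.051 or -0.046.

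The de novo methyltransferases Dnmt3a and Dnmt3b were below Dnmt1 in every library, and Dnmt3b was scarce. Dnmt3a (ENSMUSG00000020661, plus strand of chromosome 12, 3806007 to 3914443) was at 40.4, 36.2, 54.9 and 37.9 CPM in Prmt5 KO 1 to 4, against 26.5, 26.8, 54.3 and 41.0 CPM in Control 1 to 4. Prmt5 KO 3 and Control 3 were almost level at the top, and the groups overlapped. The log2 fold change was 0.20 (standard error 0.333, edgeR adjusted p = 0.939), and it lay between 0.046, without Prmt5 KO 3, and 0.43, without Control 3.

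Dnmt3b (ENSMUSG00000027478, plus strand of chromosome 2, 153649450 to 153687730), the other de novo enzyme, had 32, 1, 6 and 3 counts in Prmt5 KO 1 to 4, against 7, 3, 9 and 34 counts in Control 1 to 4. This is 5.40, 0.194, 0.893 and 0.748 CPM in Prmt5 KO, against 1.18, 1.34, 4.94 and 5.98 CPM in Control. Prmt5 KO 1, Control 3 and Control 4 stood above the other 5 libraries. Dnmt3b did not pass the filter on low counts; with no filter its log2 fold change was -0.83 with a 95% interval from -2.99 to 1.33, and it did not pass (edgeR adjusted p = 0.793). In Prmt5 KO 1 the high Dnmt3b came with high summed somatic markers (766 CPM). In Control 3 and Control 4 the high Dnmt3b came with sums of 183 and 217 CPM. The part of somatic cells in the level of Dnmt3b was not tested.

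Dnmt3l (ENSMUSG00000000730, plus strand of chromosome 10, 78041947 to 78063622), the catalytically inactive cofactor of DNMT3A, had none of its 8 annotated transcripts listed in any of the 8 libraries. Whether this stands for 0 reads or for a gene that the counting did not include is not known from the files. Dnmt3c, the rodent-specific copy of Dnmt3b that methylates young transposons in male germ cells, was named after its values were seen. It was at 3.39 ± 1.93 CPM in Prmt5 KO and 2.21 ± 0.959 CPM in Control (SD, n = 4 each; edgeR adjusted p = 0.875). Dnmt3b and Dnmt3c are similar in sequence, so reads may be split between them.

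Among the oxidases Tet1 held nearly the whole signal. Tet1 (ENSMUSG00000047146, minus strand of chromosome 10, 62804570 to 62908996) was at 202.5, 207, 258 and 208 CPM in Prmt5 KO 1 to 4, against 229, 163, 199 and 219 CPM in Control 1 to 4. Prmt5 KO 3 was the highest library and Control 2 the lowest, and the other 6 lay between 199 and 229 CPM. The log2 fold change was 0.11 (standard error 0.165, edgeR adjusted p = 0.922), and it lay between 0.024, without Prmt5 KO 3, and 0.18, without Control 1.

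Tet2 (ENSMUSG00000040943, minus strand of chromosome 3, 133463679 to 133545139) had 13, 17, 27 and 68 counts in Prmt5 KO 1 to 4, against 8, 10, 5 and 19 counts in Control 1 to 4. This is 2.20, 3.29, 4.02 and 16.9 CPM in Prmt5 KO, against 1.35, 4.46, 2.74 and 3.34 CPM in Control. Prmt5 KO 4, which also stood apart in the scaling plot, was alone at the top, and the other 3 Prmt5 KO libraries lay within the Control range. Its log2 fold change of 1.15 (standard error 0.790, edgeR adjusted p = 0.756) was the largest of the 7 genes tested, and it lay between 0.11, without Prmt5 KO 4, and 1.45, without Prmt5 KO 1. What sets Prmt5 KO 4 apart was not tested.

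Tet3 (ENSMUSG00000034832, minus strand of chromosome 6, 83362373 to 83459084), the oxidase of the egg, had 1 count each in Prmt5 KO 3, Prmt5 KO 4 and Control 4, and 0 in the other 5 libraries. A count of 0 allows a level of up to 0.581 CPM in Prmt5 KO 2 and up to 1.65 CPM in Control 3 (3 counts of the library, counting error only). No fold change is given for Tet3, as both groups were at or under that limit.

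**Figure D1:**
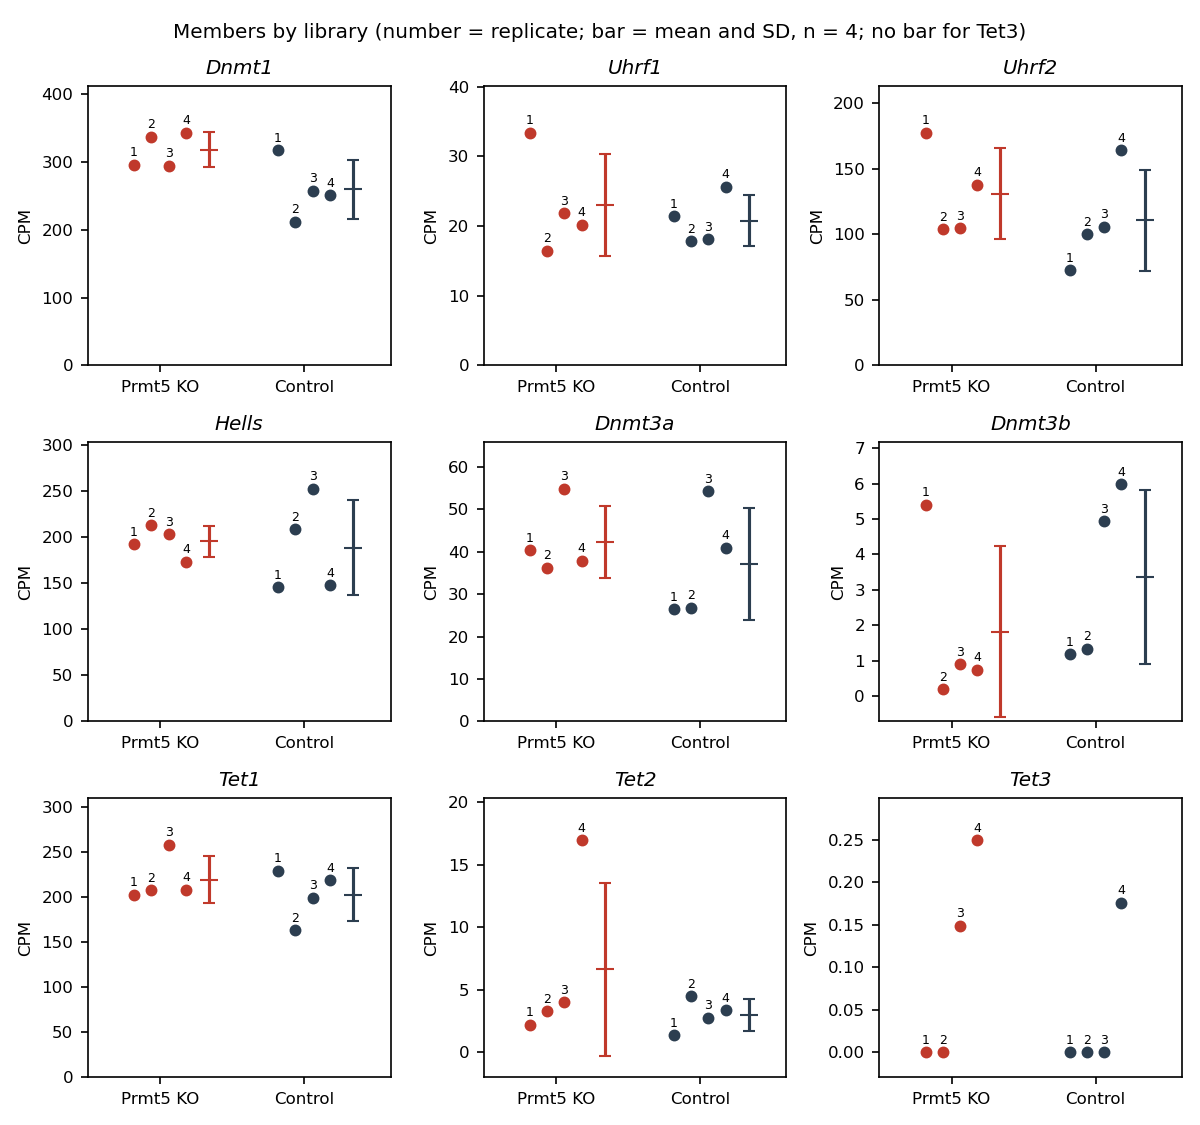
Level in CPM (y axis) of the 9 listed genes in the 4 Prmt5 KO libraries (left in each panel) and the 4 Control libraries (right); numbers are replicates, and bars give the mean and SD except for Tet3. The groups overlap in each panel; Prmt5 KO 4 is alone at 16.9 CPM for Tet2, and Prmt5 KO 1 is highest for Uhrf1 and Uhrf2.

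The order of levels within the Control germ cells was read per kb of transcript, since long transcripts collect more reads. Dnmt1 led with 48.4 ± 8.14 CPM per kb, followed by Hells with 32.1 ± 8.82 and Uhrf2 with 31.3 ± 10.9 (SD, n = 4 Control libraries). Tet1 had 14.1 ± 2.03 CPM per kb, Uhrf1 5.79 ± 1.02 and Dnmt3a 3.84 ± 1.37 (SD, n = 4 Control libraries). Dnmt3b had 0.778 ± 0.570 CPM per kb and Tet2 0.324 ± 0.141 (SD, n = 4 Control libraries), with Tet3 last. The Control ranges of Dnmt1 and Hells, of Hells and Uhrf2, of Uhrf1 and Dnmt3a, and of Dnmt3b and Tet2 overlapped. The steps that no Control library bridged were Uhrf2 over Tet1 (2.22-fold), Tet1 over Uhrf1 (2.43-fold), Dnmt3a over Dnmt3b (4.93-fold), and Tet2 over Tet3, which was at the detection limit. The step of Uhrf2 over Tet1 depends on the division by length: in CPM not divided by length, Tet1 averaged 202.5 ± 29.2 and stood above Hells with 188 ± 51.8 and Uhrf2 with 111 ± 38.5 (SD, n = 4 Control libraries).

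Read within each library, Dnmt1 was above Hells in all 8, with Hells at 0.461 to 0.629 of Dnmt1 per kb in Prmt5 KO and 0.418 to 0.899 in Control, while Uhrf1 was above Dnmt3a in 4 of 4 Prmt5 KO and 3 of 4 Control libraries. Dnmt1, Hells and Uhrf2 stood above 85.3%, 78.1% and 77.6% of the 10990 tested genes by Control level per kb, whose median was 9.74 CPM per kb. Tet1 stood above 59.7%, Uhrf1 above 36.9% and Dnmt3a above 27.2%. In Prmt5 KO the order differed from Control in 2 of 36 gene pairs, where Uhrf2 passed Hells and Tet2 passed Dnmt3b. Both changes fall between genes whose ranges overlapped.

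**Figure D2:**
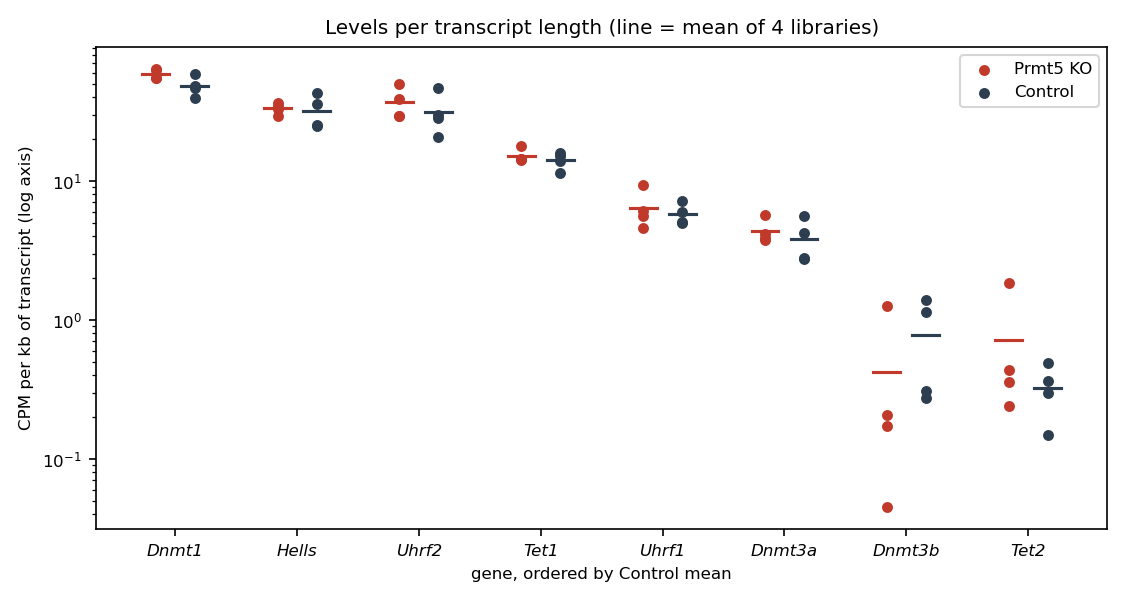
Level per kb of transcript (log y axis) of 8 genes in Prmt5 KO (red, left) and Control (dark, right) libraries, ordered by the Control mean; each point is a library and lines are means. Dnmt1, Hells and Uhrf2 lie at the top and Dnmt3b and Tet2 at the bottom, with Tet3 not drawn because 5 libraries had 0 counts.

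The comparison asks whether germ cells with the floxed Prmt5 alleles, in which Prmt5 transcripts were reduced and not absent, differ in the transcripts of the machinery itself. None of the 7 tested genes passed an adjusted p of 0.05 in edgeR, where 3 of 10990 genes (0.0273%) passed, 2 of them higher (0.0182%) and 1 lower (0.0091%) in Prmt5 KO. None had an unadjusted p under 0.05, against 8.15% of all genes tested, and none was called by DESeq2, against 1.02% of the genes it tested. Without Control 1, Dnmt1 was the 1 member with an unadjusted p under 0.05 (edgeR unadjusted p = 0.023, adjusted p = 0.679). For none of the 7 did the 4 Prmt5 KO and 4 Control libraries separate, against 4.9% of all genes. All 7 log2 fold changes were above 0, as were 52.7% over all genes, but those of Tet1, Uhrf1, Uhrf2 and Hells turned below 0 in at least 1 alternative fit. The median was 0.20 over the 7, from 0.057 for Hells to 1.15 for Tet2, and 0.028 over all genes tested. Only genes with enough counts were tested, so Tet3, Dnmt3b and Dnmt3l are not part of these counts.

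The intervals say how large a change these libraries still allow. The 95% interval of the Prmt5 KO over Control fold was 0.843 to 1.38 for Tet1, 0.971 to 1.54 for Dnmt1 and 0.772 to 1.40 for Hells. It was 0.791 to 1.77 for Uhrf2, 0.696 to 1.88 for Dnmt3a and 0.610 to 1.99 for Uhrf1. For these 6 genes a 2-fold change in either direction lies outside the interval of the main fit, by a small margin for Uhrf1. This depends on the fit. With no filter, Uhrf1 was at a log2 fold change of 0.17 (standard error 0.464). Without Control 2 and 3, Dnmt3a was at 0.33 (standard error 0.416). In those fits a 2-fold rise of the gene is not outside the interval. For Tet2, at few counts, it was 0.683 to 7.26.

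**Figure D3:**
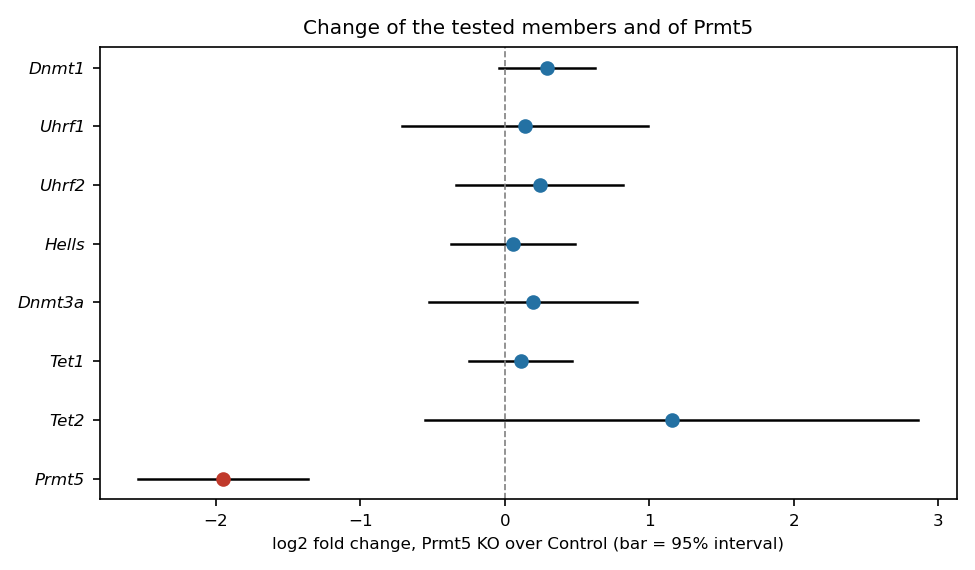
Log2 fold change of Prmt5 KO over Control (x axis) with its 95% interval (bars) for the 7 tested genes and for Prmt5. The interval of each of the 7 genes includes 0, from the narrow Dnmt1 (0.29) to the wide Tet2 (1.15), while Prmt5 lies at -1.95.

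The listed transcripts of these genes show where along the mRNA the reads lay. Reads shared by several transcripts appear to be counted for each, so the values below overlap and were not tested. For Dnmt1, the 3 listed transcripts, which differ in their first exon, had 11106, 11092 and 11088 counts over the 8 libraries, so the start used by the cells cannot be read from them. For Tet1, the transcript used as the gene value and another of nearly the same length had 8163 and 8141 counts. A short Tet1 transcript lying 8045 to 9187 bases from the 3′ end had 54.1% of the read density of the whole mRNA, and one at 10876 to 12211 bases had 2.57%. The level of Tet1 per kb is therefore set mostly by the 3′ part of its long transcript, and its place in the order is uncertain to that extent.

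Dnmt3a has a long form and a short form that starts at an internal promoter; the short form is the main one known in mouse embryonic stem cells. The long transcript had 1496 counts over the 8 libraries, and Dnmt3a-203, which starts at the internal promoter and runs to the same 3′ end, had 906. As a percent of the long transcript, Dnmt3a-203 was at 50.6, 66.8, 65.0 and 43.4 in Prmt5 KO 1 to 4, against 51.6, 63.3, 70.7 and 70.8 in Control 1 to 4, and the groups overlapped. Dnmt3a-205, which starts at nearly the same place and ends 6601 bases short of the 3′ end, had 385 counts. As a percent of the long transcript, Dnmt3a-205 was at 25.9, 25.1, 25.8 and 21.1 in Prmt5 KO 1 to 4, against 29.3, 35.0, 19.2 and 27.0 in Control 1 to 4, and the groups overlapped. Dnmt3a-206, nearly all in the first exons of the long form and 8843 to 9593 bases from the 3′ end, had 11 counts over the Prmt5 KO libraries and 1 over the Control libraries. Of those 11, 8 were in Prmt5 KO 2, 3 in Prmt5 KO 3 and 0 in the other 2. At this depth the share of the forms could not be read.

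For Uhrf2, 8 of the 9 listed transcripts are annotated as retained introns, of which Uhrf2-203, at the 3′ end, had 2818 counts against 4623 for the full mRNA. As a percent of the full mRNA, Uhrf2-203 was at 66.1, 75.9, 59.8 and 52.8 in Prmt5 KO 1 to 4, against 55.1, 50.5, 56.5 and 58.4 in Control 1 to 4. The groups overlapped through Prmt5 KO 4. Read density in Uhrf2-203, within 1261 bases of the 3′ end, was 155% of that over the whole Uhrf2 mRNA. The level of Uhrf2 per kb, and its place against Tet1 and Uhrf1, is uncertain to that extent too. For Hells, a processed transcript at 4512 to 5263 bases from the 3′ end was at 17.4, 15.1, 15.8 and 18.9 percent of the full mRNA in Prmt5 KO 1 to 4, against 12.5, 13.9, 14.8 and 12.3 percent in Control 1 to 4. All 4 Prmt5 KO libraries were above all 4 Control libraries for this share, which was 1 of 8 such shares looked at and was picked out after its values were seen. The 8 were a choice among the listed transcripts, and how often such shares separate over all transcripts was not worked out. Read density in this Hells transcript was 103% of that over the whole Hells mRNA, and 44.0% in another transcript, at 5063 to 5706 bases.

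**Figure D4:**
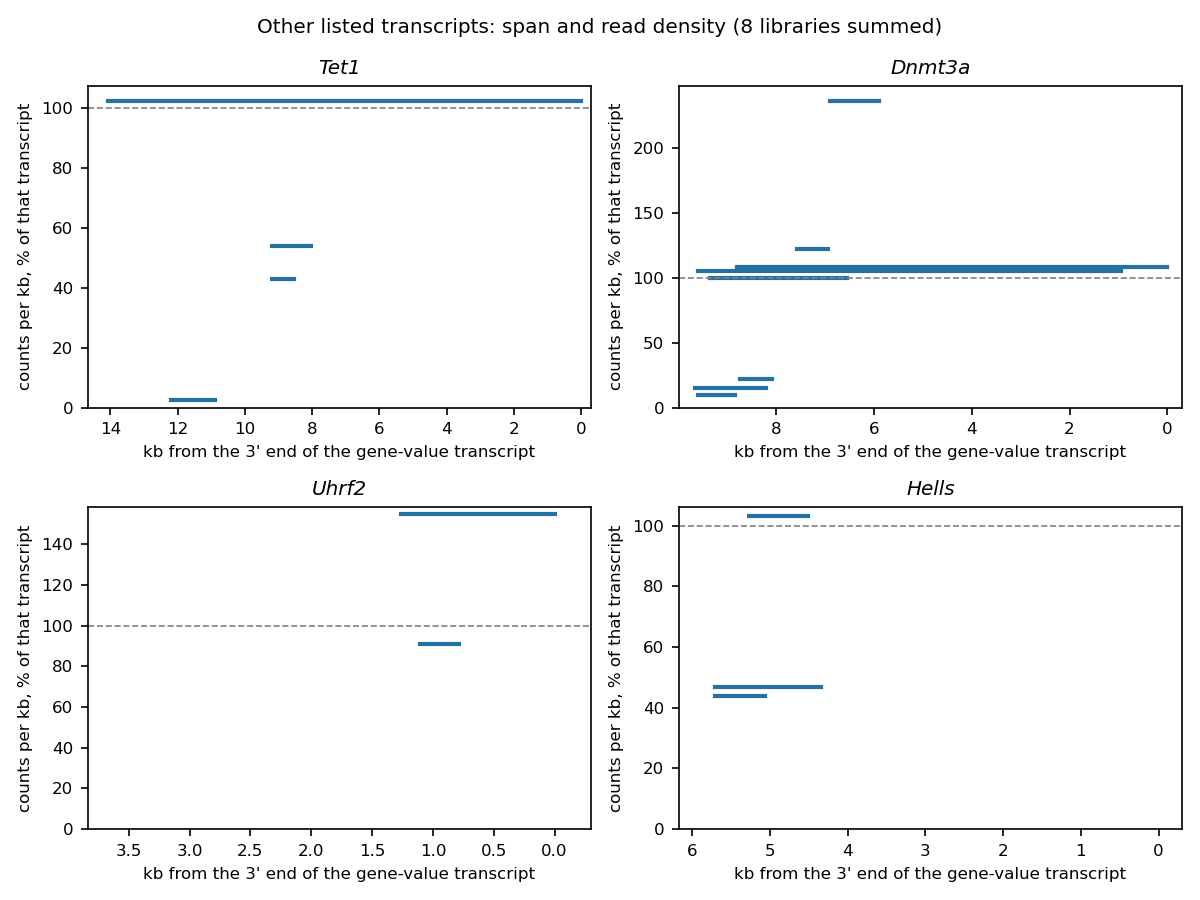
Read density (counts per kb, percent of the transcript used as the gene value, y axis) of the other listed transcripts that share at least 80% of their bases with it, drawn over their span in kb from its 3′ end (x axis, 3′ end at the right), with the 8 libraries summed. Density is low toward the 5′ end of Tet1 (2.57%) and Dnmt3a, and near that of the whole mRNA in the Hells transcript at 4512 to 5263 bases (103%).

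Genes that work with the machinery were read from lists in the same fit, and 0 of the members tested passed in any of the 8 lists. In that fit 3 of 10990 genes (0.0273%) passed, so lists of this size would rarely hold a call. Of 11 tested partners of maintenance methylation, 7 had a log2 fold change above 0 and the median was 0.035. Cdca7l, a paralogue of the HELLS partner CDCA7, was at 35.3 ± 19.4 CPM in Prmt5 KO and 97.1 ± 41.8 CPM in Control (SD, n = 4 each; edgeR adjusted p = 0.409). Usp7, the deubiquitinase that acts with DNMT1 and UHRF1 (and on p53 and MDM2), was at 229 ± 19.2 CPM in Prmt5 KO and 171 ± 17.2 CPM in Control (SD, n = 4 each; edgeR adjusted p = 0.491). Its 4 Prmt5 KO libraries, at 212 to 247 CPM, lay above the 4 Control libraries, at 157 to 196 CPM. Such a separation, in either direction, was seen for 4.9% of all genes tested. Exons of Cdca7l overlap those of Dnah11 on the opposite strand over 21.7% of its length, so its counts are uncertain.

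Of 12 tested genes that target or oppose de novo methylation, 6 were above 0 and the median was -0.0046. Mga, a subunit of a Polycomb complex that silences germline genes, was at a log2 fold change of 0.54 (edgeR adjusted p = 0.614), and Kdm1b, a histone demethylase needed for maternal imprints, at -1.39 (edgeR adjusted p = 0.712). Exons of Kdm1b overlap those of Dek, so it is uncertain. Of 10 tested genes of methyl donor supply, 3 were above 0 and the median was -0.10, with the methionine synthase gene Mtr at 0.78 and its reductase Mtrr at 0.37, neither of which passed (edgeR adjusted p = 0.760 and 0.793). Mtr was at 121 CPM in Prmt5 KO 4 and its log2 fold change was -0.082 without that library, while Mtrr was at -0.021 without Prmt5 KO 1 and 4.

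Of 12 tested TET partners and genes of cofactor supply, 7 were above 0 with a median of 0.064. The subunits Idh3b and Idh3g of the mitochondrial isocitrate dehydrogenase, which makes the TET cosubstrate 2-oxoglutarate, had the smallest p. Idh3b was at 172 ± 28.6 CPM in Prmt5 KO and 255 ± 15.9 CPM in Control, and Idh3g at 220 ± 43.5 CPM in Prmt5 KO and 315 ± 68.5 CPM in Control (SD, n = 4 each). Neither passed (edgeR adjusted p = 0.371 and 0.509). The groups did not overlap for Idh3b, as for 4.9% of all genes tested, and overlapped for Idh3g.

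Of 15 tested genes that remove oxidised or deaminated bases, 3 were above 0 and the median was -0.28. The DNA ligase gene Lig3 was at 46.9, 68.8, 56.7 and 40.1 CPM in Prmt5 KO 1 to 4, against 137, 101, 128 and 102 CPM in Control 1 to 4. The groups did not overlap, as for Usp7 and Idh3b above and for 4.9% of all genes tested. Lig3 was not called by edgeR (log2 fold change -1.14, edgeR adjusted p = 0.202). It was called by DESeq2 (DESeq2 adjusted p = 0.00207), as were 1.02% of the genes DESeq2 tested. Exons of Rffl on the opposite strand cover 30.7% of the length of Lig3. Gadd45a, a p53 target linked to demethylation, was at a log2 fold change of 0.40 (edgeR adjusted p = 0.786), with 19.5% of its length under an antisense gene.

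Of 8 tested methyl-CpG readers, 5 were above 0 and the median was 0.058. Mbd3, of the NuRD complex, was at a log2 fold change of 0.17, which turned to -0.078 without Prmt5 KO 4, and Zbtb38 at 0.21 (edgeR adjusted p = 0.912 and 0.941). Of 15 tested germline genes that DNA methylation keeps silent in other cells, 5 were above 0 and the median was -0.29. Among these Tuba3a, a tubulin gene of the testis, was at -1.06 (edgeR adjusted p = 0.635) and Stk31, a germline kinase-like gene, at -0.36 (edgeR adjusted p = 0.756). Of 16 tested DNA replication genes, the setting in which maintenance acts, 9 were above 0 and the median was 0.0016, with the cyclin gene Ccne1 at -0.54 and Rrm1, of ribonucleotide reductase, at -0.22 (edgeR adjusted p = 0.731 and 0.745).

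The genes whose profile over the 8 libraries was closest to the 3 highest members were found by the root mean square difference of log2 CPM after centring each gene. Closest to Dnmt1 were Arhgap21, Glud1 and Adh5, which differed from it by 0.0761, 0.0764 and 0.105, against a median of 0.588 over all tested genes. Closest to Hells were Mreg (0.0662), Pdia4 (0.102) and Sox2 (0.126), against a median of 0.610. Closest to Uhrf2 were Cdc42bpb (0.119), Tsc22d1 (0.141) and Csnk1g2 (0.153), against a median of 0.676. The named genes were picked as the smallest of these differences, so they lie below the median by construction. The profiles rest on 8 libraries and share their depth and scaling.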

How the data were processed

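The authors deposited whole-number read counts per Ensembl transcript for 8 libraries. A transcript not listed was taken as a count of 0, but it may also be absent from the annotation that was counted. Dnmt1-207, for example, is not listed, while the listed Dnmt1 transcripts, which overlap its span, had 11088 to 11106 counts. Builds GRCm38 and mm10 are named in the submitters' processing notes; the sources used here name no aligner, counter, annotation release or strand setting. Identifiers were matched to GENCODE M21 (64258 of 66262, 97.0%), giving 21444 genes; unmatched ones held 1.75% to 1.90% of a library's counts. Each gene was represented by whichever of its transcripts had most counts summed over all libraries, since adding transcripts would count shared reads repeatedly. The files hold transcript counts, as the design assumed.

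Genes were kept by filterByExpr (minimum count 10, minimum total 15), leaving 10990, scaled by TMM and tested with edgeR 4.0.16 (quasi-likelihood, robust, R 4.3.3) with Benjamini-Hochberg adjustment over all genes at 0.05. Standard errors are the log2 fold change divided by the square root of F. Alternatives used DESeq2 1.42.0 and limma 3.58.1; figures used matplotlib 3.10.9. The fit was tested on simulated data, with 100 genes changed 2-fold and 100 changed 4-fold, all above 10 CPM. There edgeR called 21% of the 2-fold and 73% of the 4-fold changes, and 0.00947% of unchanged genes. Many changes of 2-fold would thus be missed. No 2 libraries of a group were duplicates (lowest chi-square per degree of freedom 7.00 over 12 pairs). Limits for counts of 0 cover counting error only.

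The 10 genes and the other lists were chosen with earlier results of these data known. Named beside the 10 genes and Prmt5 were, for every other list, up to 4 members that passed, or where none did the 2 of lowest unadjusted p; the nearest 3 profiles were taken for the 3 members with the highest Control level per kb.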

Additional observations from a re-analysis of the deposited data

Results flagged for a closer look

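In 70 sets of 4 values (the listed genes, other named genes, marker sums and ratios between members, by group), 1 library lay unusually far from the rest in 7 sets, where chance gives about 1 in 20, or 3.5; the sets are not independent. Among the Prmt5 KO libraries, Tet2 was far higher in Prmt5 KO 4 (16.9 CPM), Tet1 in Prmt5 KO 3 (258 CPM), Dnmt3b in Prmt5 KO 1 (5.40 CPM) and Mbd3 in Prmt5 KO 4 (331 CPM). The summed somatic markers were far higher in Prmt5 KO 1 (766 CPM) than in the other Prmt5 KO libraries. Among the Control libraries, Mbd3 was far higher in Control 4 (284 CPM), and Tet3 in Control 4 (0.176 CPM) rests on 1 count.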

How the results depend on the processing

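No member was called in any of 20 alternatives, with 6 to 9 members tested, and the adjusted p of a member stayed at or above 0.588. Their median log2 fold change ran from 0.12 to 0.27. The sign of 4 members turned: Tet1 (-0.029) and Uhrf1 (-0.030) without Control 2 and 3, Uhrf1 (-0.12) and Uhrf2 (-0.088) without Prmt5 KO 1 and 4, Uhrf1 on leaving out single libraries (-0.095 to 0.28) and Hells likewise (-0.051 to 0.23). Of the other genes, Mbd3 turned without Control 2 and 3 (-0.013), without Prmt5 KO 1 and 4 (-0.12) and on leaving out single libraries (-0.078 to 0.40), Mtrr without Prmt5 KO 1 and 4 (-0.021) and Mtr on leaving out single libraries (-0.082 to 1.12). The cause was not tested. Lig3 was called by DESeq2 (-1.14). Over all genes, 3 calls became 107 in DESeq2, 7 with no filter, 1 in limma voom, 1 with summed transcripts, 1 without Prmt5 KO 1 and 4, 0 without Control 2 and 3 (where 713 genes had an unadjusted p under 0.05 in edgeR; DESeq2 was not run on those libraries), and 1 to 2 on leaving out single libraries. The order of Control levels changed in 3 of 36 gene pairs without division by length, with Tet1 then above Hells and Uhrf2 and Dnmt3a above Uhrf1, and in 1 with summed transcripts. With the replicate number as a replicate block, 1 gene and no member was called. Libraries with the same number correlated at 0.0023 to 0.069 in their deviations from the group means, against -0.094 to 0.036 for other numbers. In each group 3 of 4 correlated best with their own number. The main fit left the numbers out, and whether they pair the libraries is not known.

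Depth limits Tet2, Tet3 and Dnmt3b, at 0 to 68 counts per library. The absence of calls does not show that the groups were alike, given the widths of the intervals. Reads shared between transcripts, and genes overlapping on the other strand, could not be separated.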
